A study of Mus musculus with 12 samples.

Results

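Of the 7 wild-type libraries in this series, 3 differed widely from the other 4 although all 7 carry one genotype label. The 3 are WT replicates 2, 3 and 4, and they are compared here with WT replicates 1, 5, 6 and 7. They were chosen by their TPM values, since earlier results of the same table showed them apart, with Marco, Acta2, Col1a1, C1qa, Csf1r, S100a9, Gsta3, Fpr1 and Acod1 as the genes that marked them. Every gene of the table took part in that choice. All differences below are therefore descriptions of these 7 libraries, and no p-value is given.

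RNA sequencing was done on macrophages that had been derived from the bone marrow of atherosclerotic C57 mice and collected at day 7 of differentiation. The series holds 12 libraries, 7 labelled WT and 5 labelled Baf60a KO, and Baf60a is the protein of Smarcd1, a subunit of the SWI/SNF chromatin remodelling complex. WT and KO libraries carry the same cell type, day and differentiation label, and no label gives the age of the mice, the diet or gene change behind the atherosclerosis, the medium, the source of growth factor or the way the knockout was made. No label says which libraries came from separate mice or cultures, so the spread between them may be partly technical. No label names a batch or a date. The submission numbers of WT replicates 2, 3 and 4 are 2, 3 and 6, those of the other WT libraries 1, 7, 8 and 9, and those of the KO libraries 4, 5, 10, 11 and 12. KO libraries took no part in calling genes higher or lower. They are set beside the WT libraries by their range or values, and were searched for single deviating libraries.

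Bone marrow derived macrophages are obtained by culturing marrow with macrophage colony-stimulating factor (M-CSF, gene Csf1), which acts through the receptor Csf1r and drives progenitors through a monocyte stage to adherent macrophages. Marrow also holds granulocyte precursors, lymphocytes, endothelial cells and stromal cells, the last of which make collagen and, when spread on plastic, often the contractile proteins of smooth muscle and myofibroblasts. Macrophages themselves vary widely with their surroundings, in scavenger receptors such as Marco, in complement proteins such as C1q, and in inflammatory, interferon and antioxidant genes.

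Values are TPM, which are corrected for gene length and give the share of a gene in its library. They keep no depth. The labels give an average of 30000000 read pairs per library. Pearson correlations of log2(TPM + 1) across genes, which are not independent replicates, ranged from 0.966 to 0.990 among the 3 libraries, from 0.988 to 0.996 among the other 4, and from 0.826 to 0.925 between the sets. Smarcd1 stood at 11.6, 12.9 and 12.9 TPM in the 3 libraries, at 12.9 to 15.6 TPM among the other 4 and at 5.99 to 7.58 TPM in KO, so the 3 libraries lay with WT for the targeted gene. Transcripts of the mitochondrial genome made up 1.29, 1.42 and 0.738% of listed TPM in the 3 libraries, 1.35 to 1.44% in the other 4 and 1.27 to 1.58% in KO. The gene mt-Atp8 is listed at 0 in WT 4, and without it the shares were 0.852, 0.892 and 0.738%, against 0.894 to 0.982% in the other 4 and 0.866 to 1.07% in KO.

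A gene was called higher or lower when its mean log2(TPM + 1) differed by at least 1 between the sets, a 2-fold difference, and the ranges of the 3 and the 4 libraries did not overlap. Of 23438 listed genes, 11754 reached 1 TPM in at least 3 of the 7 WT libraries. Of these, 1562 (13.3%) were called higher and 513 (4.36%) lower in WT replicates 2, 3 and 4. Counts in the gene lists below are to be read beside these shares. The median difference over all 11754 genes was 0.04 on the log2 scale. Larger differences were more often upward: 248 genes were at least 3 log2 units higher and 35 at least 3 units lower. Without the 2-fold limit, 3950 genes (33.6%) lay wholly above and 3152 (26.8%) wholly below the other 4 libraries, 60.4% together.

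The filter itself shaped these counts. For 642 genes every other WT library lay under 1 TPM, and 553 of those were called higher. Another 108 passed although all 3 libraries lay under 1 TPM, and 52 of those were called lower. Lists below count genes of the first kind too, among them Emcn, Esam, Twist1, Pdgfra, Myh11, Krt19, Trac, Mcpt8, Cd55, Il34, Gsta4, Alpl and Foxc1. These members passed the filter only through the 3 libraries, so their higher calls were largely set by it. The same holds for Il6, Il1a, Cxcl1, Scara3, Tyro3, Galnt18, Igfbp3, Siglecg, Col11a1 and Hs6st2, which are also named below. Just inside the filter stood Arfgef3, whose value ranked 3 of the 7 was 1 TPM, and just outside Asap3, where it was 0.99 TPM. At the 2-fold limit Aga was just inside, with a difference of 1.001, and Atp8b1 just outside at 0.999. In most called genes the KO libraries lay on the side of the other WT libraries. For 1535 of the 1562 higher genes all 5 KO libraries lay below the lowest of the 3. For 497 of the 513 lower genes all 5 lay above the highest. The KO position was counted for called genes only, so no share over all genes stands beside it. Genes called higher held 8.39, 7.15 and 11.6% of listed TPM in WT replicates 2, 3 and 4, against 1.44 to 1.97% in the other WT libraries. Genes called lower held 2.85, 3.52 and 2.31%, against 8.26 to 9.47%. Without WT 4 the higher count was 934 and without WT 2 it was 1029, because genes seen in the 3 libraries alone then missed the filter. With the 11754 genes kept, an alternative added after the data were seen, leaving out any 1 of the 7 libraries gave 1461 to 1667 higher genes.

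**Figure D1:**
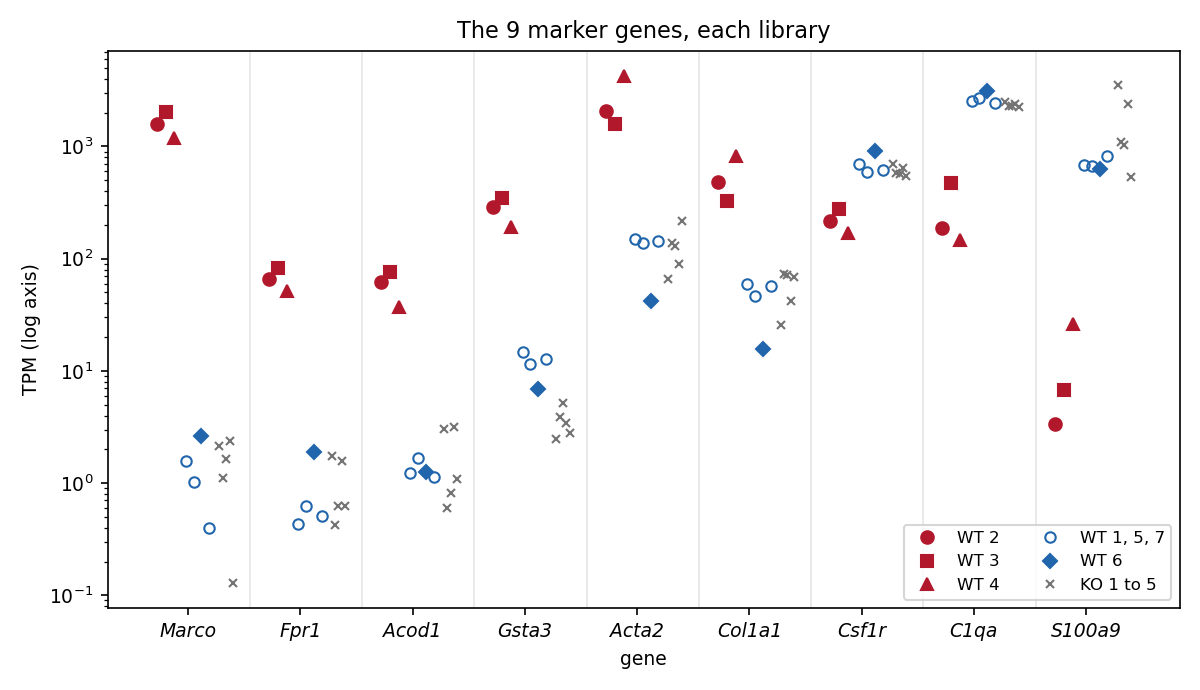
TPM (log axis) of the 9 marker genes in each library: WT replicates 2, 3 and 4 in red, WT replicates 1, 5 and 7 as open blue circles, WT 6 as a filled blue diamond, KO as grey crosses. The red points lie apart from the other 9 libraries in all 9 genes, above them in 6 and below them in 3.

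Marco, a scavenger receptor that binds bacteria and particles, had the largest difference of all 11754 genes. Its gene, ENSMUSG00000026390, lies on the minus strand of chromosome 1 (GRCm38). Its level was 1569.9, 2043 and 1186 TPM in WT 2, WT 3 and WT 4 and 1.57, 1.03, 2.64 and 0.40 TPM in WT 1, WT 5, WT 6 and WT 7, a mean difference of 9.43 on the log2(TPM + 1) scale. That scale understates the ratio of genes that are this low in one set. Below, values are written in the same way, those of WT replicates 2, 3 and 4 in that order against the range of the other 4 or their values in order.

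Fpr1, a receptor for bacterial formyl peptides, stood at 65.2, 82.5 and 51.1 TPM against 0.43, 0.62, 1.9 and 0.51 TPM. Acod1, which makes itaconate in activated macrophages, was at 62.1, 76.4 and 37.2 TPM against 1.24, 1.68, 1.25 and 1.13 TPM. Gsta3, a glutathione S-transferase of the antioxidant response, was at 291, 349 and 193 TPM against 14.6, 11.5, 6.86 and 12.7 TPM. In these 3 genes and Marco, WT 3 was the highest and WT 4 the lowest of the 3 libraries, and the sets lay far apart.

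Acta2, the actin of smooth muscle and myofibroblasts, stood at 2076, 1574 and 4236 TPM against 148, 138, 42.3 and 144 TPM, which gives 2629 ± 1415 TPM (SD, n = 3) and 118 ± 50.7 TPM (SD, n = 4). Col1a1, a chain of type I collagen, was at 480.4, 327 and 822 TPM against 58.9, 46.6, 15.7 and 57.4 TPM, or 543 ± 253 TPM (SD, n = 3) and 44.6 ± 20.1 TPM (SD, n = 4). Here the order within the 3 was turned, with WT 4 highest and WT 3 lowest, and WT 6 was the lowest of all 7.

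The genes that marked the other set were lower throughout the 3 libraries. Csf1r stood at 215, 275 and 169.6 TPM against 699, 598, 910 and 618 TPM, or 220.1 ± 53.1 TPM (SD, n = 3) and 706 ± 143 TPM (SD, n = 4). C1qa, a chain of the complement starter C1q, was at 188, 474 and 146 TPM against 2542, 2715, 3113 and 2461 TPM. S100a9, a calcium-binding protein abundant in neutrophils and monocytes, was at 3.39, 6.82 and 26.1 TPM against 678, 664, 632 and 818 TPM. The plot of the 9 marker genes shows KO on the side of the other WT libraries in each.

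**Figure D2:**
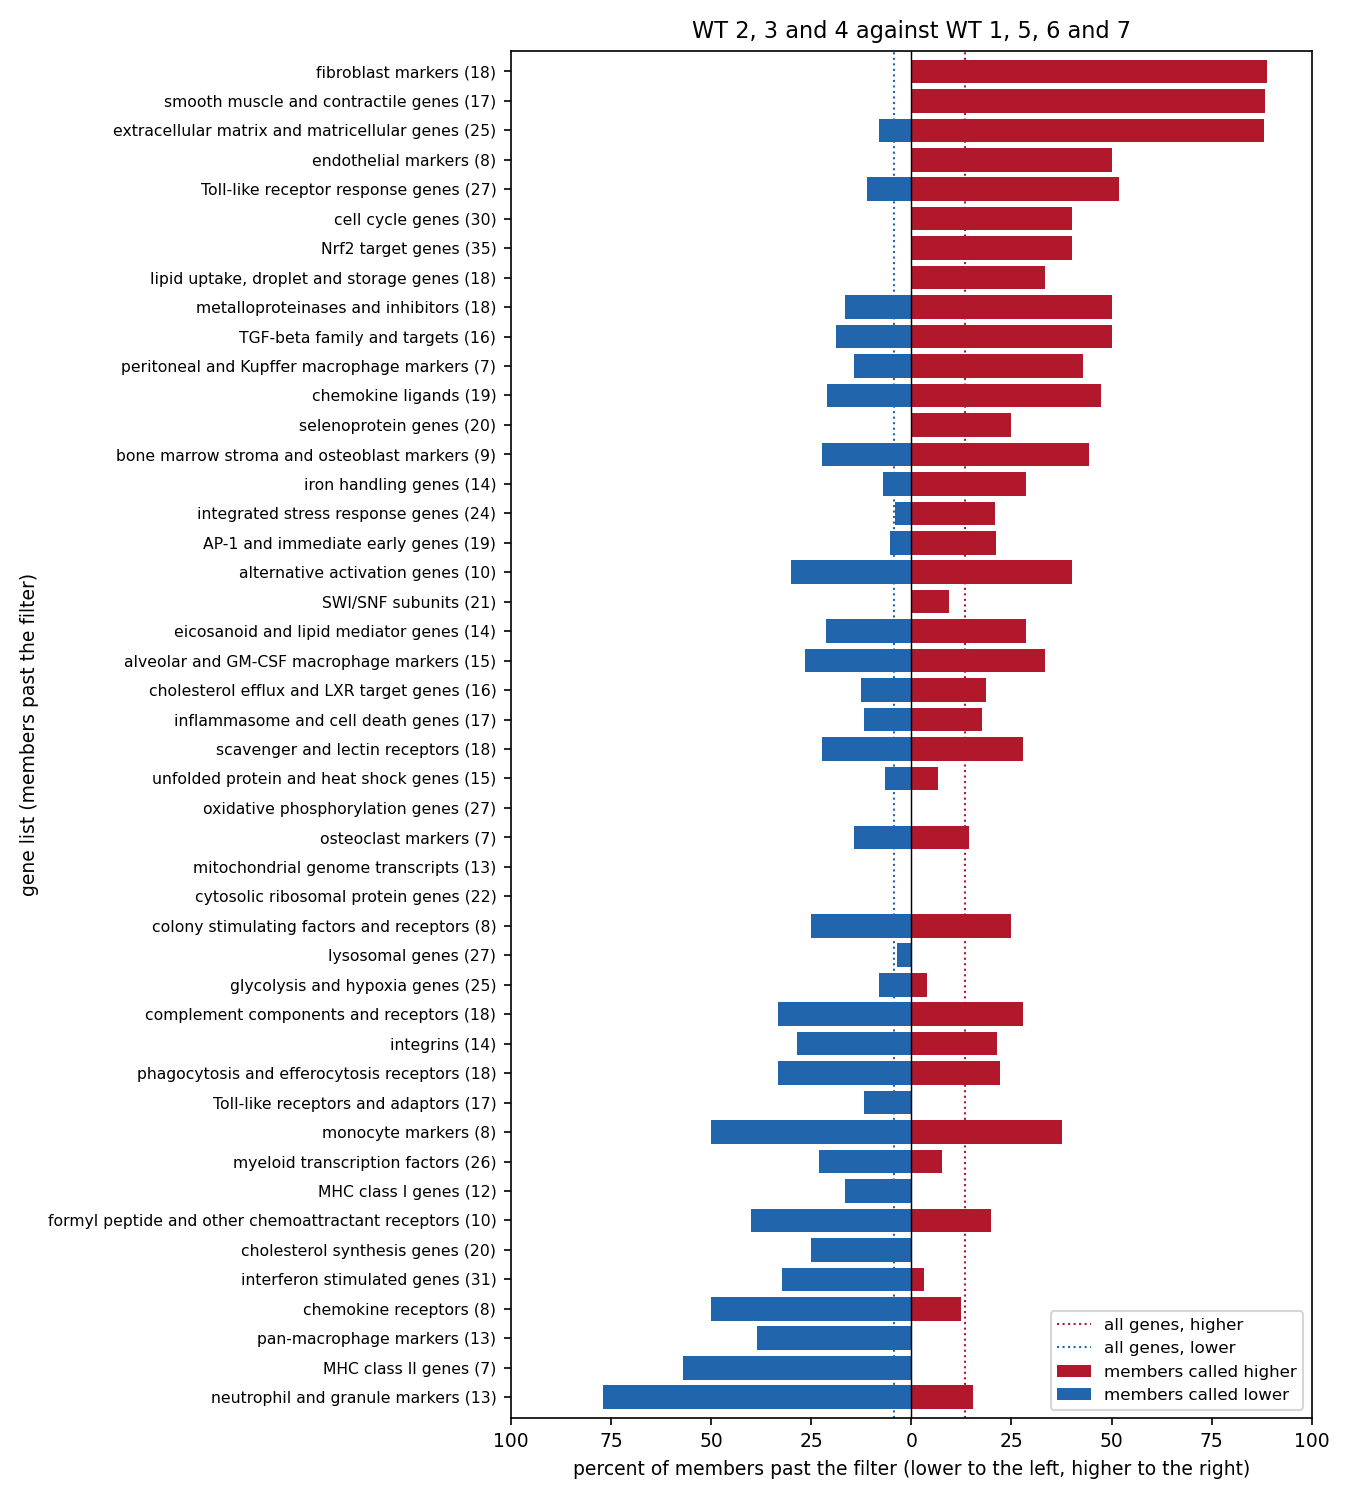
Percent of the members past the filter that were called higher (red, to the right) or lower (blue, to the left) in WT replicates 2, 3 and 4, for the lists with at least 7 such members. Dotted lines mark the 13.3% and 4.36% of all genes called. Fibroblast, contractile and matrix lists lie at the top and the neutrophil list at the bottom, where 10 of 13 members were called lower.

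Macrophage identity was read from 13 general markers, all past the filter. None was called higher and 5 were called lower, with a median difference of -0.36. Adgre1, which encodes the F4/80 antigen, stood at 449.8, 586 and 371 TPM against 507 to 653 TPM. Cd68, a lysosomal protein of macrophages, was at 1533, 1718 and 1119.6 TPM against 1379 to 1508 TPM. Itgam, the CD11b integrin chain, was at 236, 287 and 188 TPM against 253 to 303 TPM. The sets overlapped in these 3 genes, which were picked from the 13 after their values were seen. Their transcripts were abundant in all 7 libraries, but 11 of the 13 differences were below 0. In bulk RNA, fewer cells of a type and less RNA per cell cannot be told apart, here or in any list below.

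The members called lower included Csf1r, Fcgr1, Cd14 and Cx3cr1. Cd14, the co-receptor for lipopolysaccharide, stood at 81.8, 77.4 and 60.0 TPM against 315 to 482 TPM. Cx3cr1, the fractalkine receptor, had the widest difference of the list, at 2.01, 4.79 and 2.85 TPM against 66.3 to 178 TPM. Lyz2, the main macrophage lysozyme, followed another pattern. Its level was 16587, 21547 and 5232 TPM against 14635 to 16912 TPM, with WT 4 alone below the other WT libraries and inside the KO range of 4932 to 5853 TPM. Lyz2 sets most of the summed level of this list, which was 20823, 26348 and 8520.1 TPM against 19529 to 21864 TPM.

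The colony-stimulating factors and their receptors split by role. Of 8 members past the filter, the 2 called higher were ligands and the 2 called lower were receptors. Csf1, the ligand of Csf1r, stood at 472, 282 and 695 TPM against 41.8, 38.0, 10.6 and 39.0 TPM. Il34, its second ligand, was at 5.0, 2.96 and 4.59 TPM against 0.010 to 0.24 TPM. Csf2ra, the alpha chain of the GM-CSF receptor, was lower, at 218, 272 and 174 TPM against 467 to 575 TPM. Csf1 was highest in WT 4 and lowest in WT 6, Il34 highest in WT 2, and Csf2ra lowest in WT 4. Csf2, the GM-CSF gene, did not pass the filter: it was at 0.12, 0.10 and 0.16 TPM and is listed at 0 in the other 9 libraries. Csf2rb, the beta chain of its receptor, overlapped at 59.2, 56.6 and 49.4 TPM against 58.3 to 59.6 TPM.

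Of 26 myeloid transcription factors past the filter, 2 were called higher and 6 lower. The higher share, 7.69%, lies below the 13.3% of all genes, and the lower share was 23.1% against 4.36%. Irf8, a factor of monocytes and dendritic cells, stood at 66.5, 74.3 and 37.6 TPM against 157 to 199 TPM. Irf5, which drives inflammatory cytokine genes, was at 85.2, 96.7 and 58.3 TPM against 185 to 237 TPM. Mitf, of the macrophage and osteoclast lineage, was at 6.85, 7.83 and 5.7 TPM against 19.3 to 22.9 TPM. All 3 were lowest in WT 4. Spi1 (PU.1), the master factor of the lineage, missed the 2-fold limit at 196, 239 and 135 TPM against 327 to 396 TPM, with no overlap. Id3, an inhibitor of helix-loop-helix factors, was higher, at 176, 173 and 232 TPM against 54.0 to 61.5 TPM.

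Fibroblast markers were called higher in most members measured. Of 20 fibroblast markers 18 passed the filter, and 16 of these were called higher and none lower, with a median difference of 2.88. Their summed level was 2464, 1679 and 4077 TPM against 64.6 to 244 TPM, and 119 to 326 TPM in KO. Of this sum, WT 4 held the most and WT 3 the least of the 3 libraries, and WT 6 the least of the 4.

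Postn (periostin), a matrix protein of activated fibroblasts, stood at 497, 302 and 727 TPM against 16.5, 9.69, 3.75 and 13.1 TPM. Fbln2 (fibulin 2) was at 136, 84.5 and 245 TPM against 1.88 to 7.45 TPM. The collagen genes Col1a2 and Col5a2 also did not overlap, with smaller log2 differences of 3.87 and 4.06 against 5.50 for Postn and 4.54 for Fbln2. Col1a2 was at 642, 435 and 1014 TPM against 16.2 to 62.4 TPM, and Col5a2 at 398, 236 and 771 TPM against 8.64 to 34.5 TPM. Twist1, a transcription factor of mesenchymal cells, was at 9.79, 6.78 and 12.4 TPM against 0.21 to 0.82 TPM. Not all fibroblast markers were high. Dcn (decorin) overlapped at 11.1, 3.22 and 4.38 TPM against 2.06 to 7.93 TPM, and Lum and Twist2 did not pass the filter. Pdgfra, a growth factor receptor, was called higher at a low level, 3.76, 2.33 and 5.57 TPM against 0.27 to 0.64 TPM. WT 4 lay above WT 3 in 14 of the 16 called markers, and WT 6 below the mean of WT replicates 1, 5 and 7 in all 16.

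Markers of marrow stroma and osteoblasts went both ways. Of 9 members past the filter, 4 were called higher, namely Cxcl12, Alpl, Foxc1 and Vcam1, and 2 lower, Nt5e and Spp1. Of these, Vcam1 and Spp1 are named after their values were seen. Cxcl12, the chemokine that holds blood progenitors in marrow, stood at 57.4, 40.8 and 66.9 TPM against 2.78 to 12.5 TPM. Nt5e (CD73), an ecto-enzyme used as a marker of cultured stromal cells, was lower, at 3.64, 1.7 and 2.63 TPM against 25.5 to 44.0 TPM, and outside the KO range of 24.5 to 30.0 TPM. The other lower member was Spp1 (osteopontin), which macrophages also make, at 2549, 2495 and 1797 TPM against 4871 to 5729 TPM. The sum of the list was lower in the 3 libraries, at 2649, 2574 and 1925 TPM against 4935 to 5789.9 TPM, and Spp1 made up most of it.

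Contractile genes were higher as well. Of 17 members past the filter, 15 were called higher and none lower, with a median difference of 3.26. Their sum was 8361, 6069.6 and 15800.2 TPM against 762 to 1282 TPM. Cnn1 (calponin 1), an actin-binding protein of differentiated smooth muscle, stood at 133, 109.6 and 469.6 TPM against 3.86, 3.6, 0.77 and 2.97 TPM. Tagln (transgelin), which bundles actin, was at 2149.7, 1467 and 3563 TPM against 126, 124, 31.0 and 137 TPM. Actg2, the enteric actin, was at 199.8, 226 and 671 TPM against 10.9, 9.56, 3.26 and 10.3 TPM. WT 4 was the highest of the 3 in each, and all 15 called members were higher in WT 4 than in WT 3. Myh11, the smooth muscle myosin heavy chain, was called higher but low, at 4.62, 3.7 and 14.7 TPM against 0.080 to 0.32 TPM. Myocd, the co-activator that drives the smooth muscle programme, did not pass the filter, and Flna and Srf were not called.

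Many contractile genes are controlled by serum response factor, which binds the CArG box. Promoter sequence from RefSeq (GRCm38.p6) was available for 14 of the 18 contractile genes. A CArG box lay within 250 bases before the start site in 4 of these 14 (28.6%), Acta1, Cnn2, Myl9 and Srf, against 1.62% of 27018 genes with a promoter in the table. It lay there in 3 of the 12 called higher with a sequence. A match is a description of the letters in this window. Myl9, the regulatory light chain of smooth muscle myosin, is shown as the called member with the box, in capitals, that begins 161 bases before the start, at chr2:156775214-156775463 on the plus strand.
Myl9 upstream: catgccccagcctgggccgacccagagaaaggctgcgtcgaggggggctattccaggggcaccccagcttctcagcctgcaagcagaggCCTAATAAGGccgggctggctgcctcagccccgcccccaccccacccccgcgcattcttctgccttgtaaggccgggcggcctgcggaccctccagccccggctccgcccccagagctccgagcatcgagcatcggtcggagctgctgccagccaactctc
Myl9 itself stood at 378, 268 and 865 TPM against 8.06 to 39.4 TPM, with WT 6 lowest of all 7 WT libraries.

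Matrix genes were called higher in 22 of 25 members past the filter and lower in 2, Spp1 and Col18a1. The lists share members, such as Vcan with the monocyte markers and Ccn2 with the TGF-beta list, so their counts are not independent. Nid1 (nidogen 1), a linker of basement membranes, had the widest difference, at 78.2, 51.9 and 157 TPM against 3.17, 2.87, 0.78 and 3.03 TPM. Other basement membrane genes were close to it. Col4a1, a chain of type IV collagen, was at 151, 191 and 451 TPM against 3.3 to 17.4 TPM, and Lamb1 (laminin beta 1) at 73.4, 51.0 and 134 TPM against 1.2 to 4.9 TPM. Sparc, a collagen-binding protein, stood at 1134, 882 and 2082 TPM against 29.6 to 105 TPM. Fn1 (fibronectin), which macrophages make as well, differed less, at 594, 464 and 1308 TPM against 233 to 288 TPM, and KO lay lower still at 92.0 to 153 TPM.

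Proteases of the matrix and their inhibitors differed in both directions. Of 18 members past the filter, 9 were called higher and 3 lower. Mmp2, a gelatinase of stromal cells, stood at 121, 78.02 and 183 TPM against 1.89 to 7.0 TPM. Timp3, an inhibitor bound to matrix, was at 85.9, 44.5 and 134 TPM against 1.72 to 9.33 TPM. Timp1, a soluble inhibitor, was at 635, 458 and 616 TPM against 20.7 to 66.1 TPM. Timp1 had its highest value in WT 2, Mmp2 and Timp3 in WT 4. Mmp9, the gelatinase of myeloid cells, was higher too, at 47.5, 44.7 and 41.5 TPM against 5.58 to 7.21 TPM, while KO replicates 1 to 4 held 9.22 to 10.1 TPM and KO replicate 5 held 48.6 TPM. Plau, which encodes urokinase, was lower, at 126, 143 and 125 TPM against 949 to 993 TPM.

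In the TGF-beta family, a set of growth factors that drive matrix production, the ligands and receptors called lay on opposite sides. Of 16 members past the filter, 8 were called higher and 3 lower. Tgfb3, a ligand, stood at 49.0, 45.5 and 152 TPM against 4.15 to 9.21 TPM. Inhba, which encodes activin A, was at 245, 163 and 377 TPM against 11.03 to 33.9 TPM. Tgfb1, the founding ligand, overlapped at 122, 149 and 96.1 TPM against 143 to 163 TPM. Both receptor genes were lower. Tgfbr1 was at 20.04, 21.9 and 20.01 TPM against 72.0 to 91.7 TPM, and Tgfbr2 at 27.3, 30.3 and 26.6 TPM against 54.5 to 68.8 TPM. Ccn2, a target, stood at 879, 548 and 1244 TPM against 41.2 to 143 TPM. Tgfbi, a target named for its induction by TGF-beta and abundant in monocytes, was lower, at 36.6, 61.4 and 41.7 TPM against 376 to 439 TPM.

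**Figure D3:**
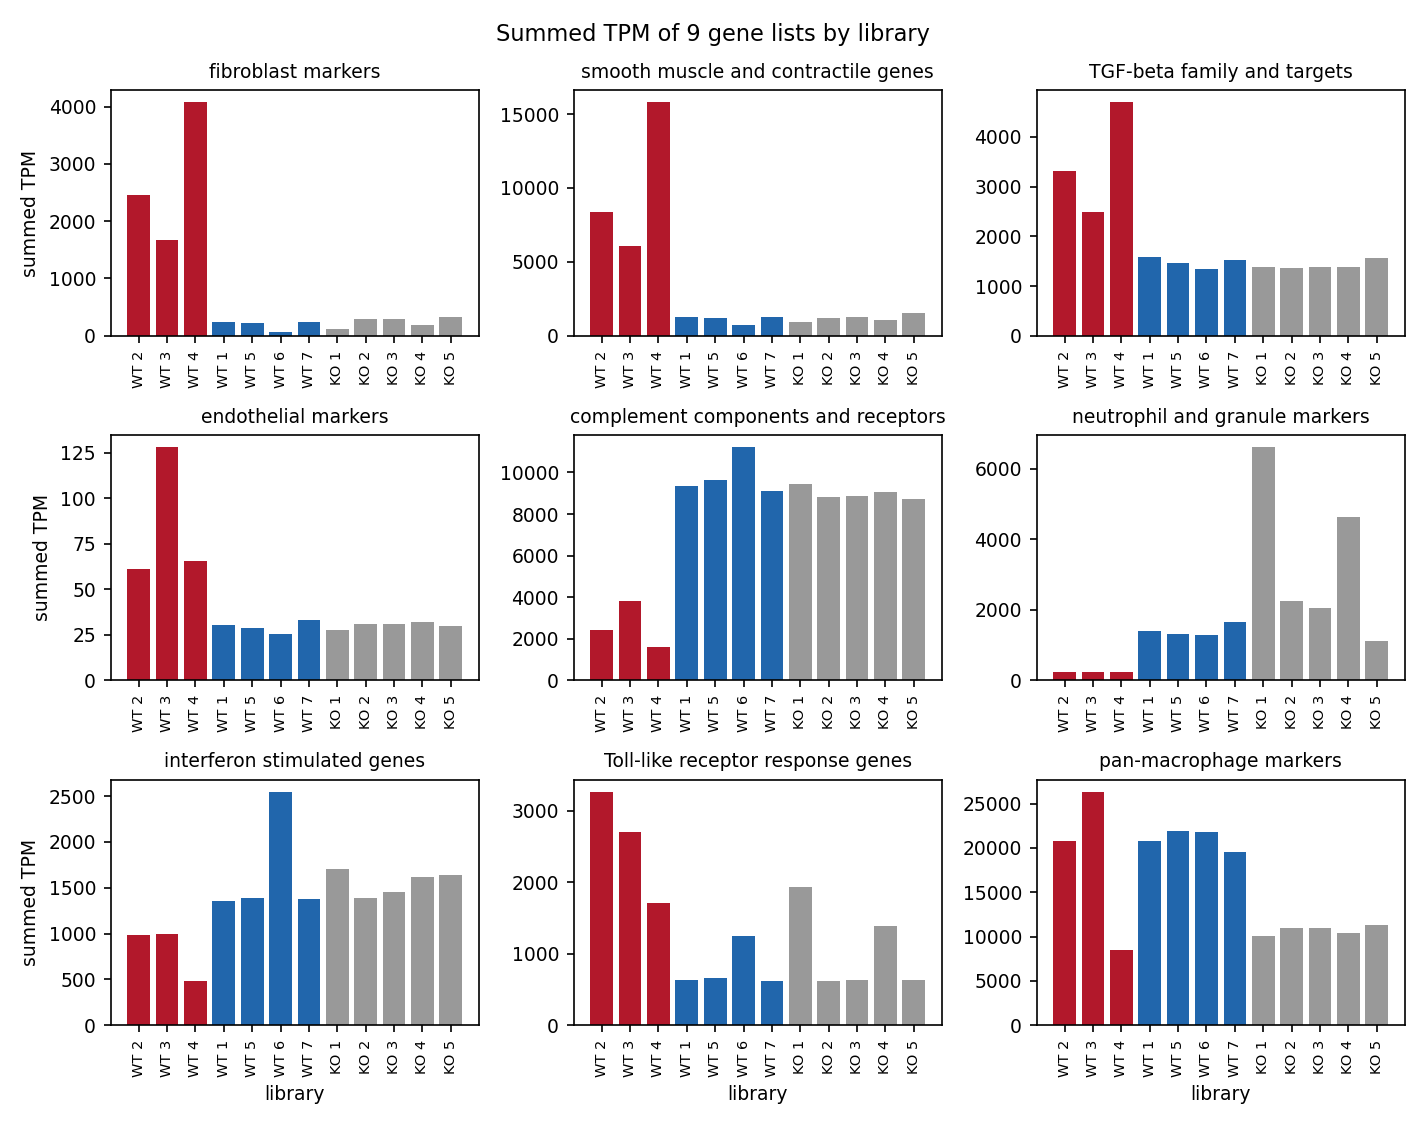
Summed TPM of 9 gene lists in each of the 12 libraries, each axis from 0: WT replicates 2, 3 and 4 in red, the other WT libraries in blue, KO in grey. Fibroblast and contractile sums are highest in WT 4, the endothelial sum in WT 3 at 128 TPM, and the interferon sum in WT 6 at 2549 TPM.

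Markers of other cell types were examined next. Of 13 neutrophil and granule genes past the filter, 10 were called lower and 2 higher, with a median difference of -3.15. The sum of the list was 234, 231 and 247 TPM against 1298 to 1672 TPM, and 1128 to 6626 TPM in KO. The 2 members called higher were the proteases Mmp8 and Mmp9. Ngp, a granule protein of immature neutrophils, stood at 0.50, 0.65 and 1.48 TPM against 151, 125, 116 and 177 TPM. Elane (neutrophil elastase) was at 0.14, 0.070 and 0.040 TPM against 20.9 to 25.4 TPM. Ltf (lactoferrin) was at 0.20, 0.17 and 0.28 TPM against 18.1 to 24.4 TPM. These granule genes, and Mpo (myeloperoxidase) at 0.12, 0.080 and 0.030 TPM against 12.96 to 17.0 TPM, were near 0 in the 3 libraries.

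Monocyte markers split, with 3 of 8 past the filter called higher and 4 lower. Ccr2, the chemokine receptor by which monocytes leave marrow, stood at 0.47, 0.65 and 0.22 TPM against 19.6, 13.6, 35.8 and 17.6 TPM. Ly6c2, the marker of classical monocytes, was at 7.54, 7.63 and 7.08 TPM against 20.4 to 59.4 TPM. Chil3, which encodes the lectin Ym1, was at 1.99, 2.06 and 2.99 TPM against 99.8 to 135 TPM. WT 6 was the highest of the 4 in Ccr2 and Ly6c2. Vcan (versican), which stromal cells also make, was higher, at 22.4, 15.6 and 44.6 TPM against 1.04 to 2.26 TPM.

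Markers of lymphoid, granulated and epithelial cells were scarce. Of 15 lymphoid markers 5 passed the filter, of which 1 was called higher and 2 lower. Igkc, the immunoglobulin kappa light chain, stood at 0.46 and 1.48 TPM in WT 2 and WT 3, is listed at 0 in WT 4, and was at 16.6 to 54.2 TPM in the other 4. Ighm, the heavy chain of IgM, was at 3.14, 3.79 and 4.91 TPM against 8.89 to 17.0 TPM. Trac, the constant part of the T cell receptor alpha chain, was the one called higher, at 1.88, 1.35 and 2.82 TPM against 0.16 to 0.32 TPM, although Cd3e and Cd3g did not pass the filter. Of 13 basophil, mast cell and eosinophil markers 3 passed. Mcpt8, a basophil protease, was called higher, at 5.35, 2.27 and 6.87 TPM against 0.040 to 0.64 TPM, and Prg2, an eosinophil granule protein, lower, at 0.070, 0.050 and 0.050 TPM against 2.3 to 6.53 TPM. Of 7 epithelial markers 1 passed, the keratin Krt19, at 12.9, 10.7 and 38.9 TPM against 0.040 to 0.22 TPM. Its partner Krt8 is listed at 0 in all 12 libraries, and Epcam reached at most 0.15 TPM in any.

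The endothelial markers called, and the sum of their list, were highest in a different library from the stromal ones. Of 8 members past the filter, 4 were called higher and none lower, and the sum was 61.0, 128 and 65.5 TPM against 25.6 to 32.9 TPM. WT 3 stood highest in each of the 4. Emcn (endomucin), a sialomucin of venous and capillary endothelium, was at 2.72, 14.0 and 3.49 TPM against 0.020 to 0.25 TPM. Pecam1 (CD31), an adhesion molecule of endothelial and myeloid cells, was at 3.37, 15.3 and 3.47 TPM against 0.71 to 1.28 TPM. Egfl7, secreted by endothelium, was at 5.39, 14.0 and 5.46 TPM against 0.78 to 2.38 TPM. The junction gene Esam differed less within the 3, at 4.6, 9.84 and 6.59 TPM against 0.12 to 0.52 TPM. Emcn and Esam lay under 1 TPM in every other WT library and passed the filter only through the 3.

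Further genes, named after their values were seen, were also highest in WT 3, although Cdh5 was not called and the other 2 markers did not pass the filter. Cdh5 (VE-cadherin) stood at 1.51, 14.4 and 1.82 TPM against 0.65 to 3.27 TPM. Cldn5 (claudin 5), a tight junction protein, was at 0.24, 5.93 and 0.10 TPM against 0 to 0.020 TPM. Tie1, an endothelial receptor, was at 0.56, 5.25 and 0.48 TPM against 0.030 to 0.10 TPM. Kdr, Tek, Vwf and Eng, the rest of the endothelial list, were not called. Together they made up most of its sum in WT 2 and WT 4 and differed less between WT 3 and these libraries. Igfbp3, a carrier of insulin-like growth factors, was low in WT 2 and WT 4 and high in WT 3, at 1.46, 61.1 and 1.21 TPM against 0.060 to 0.32 TPM.

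The fibroblast, contractile, neutrophil and endothelial sums separate the same libraries as the lists described from here on. Their part in the differences of those lists was not tested. An alternative added after the data were seen left out the fibroblast, contractile and matrix genes and rescaled each library. It called 1548 genes higher and 488 lower. Only the listed genes were left out, so these counts give no measure of that part.

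Scavenger receptors and lectins, by which macrophages take up particles, were called higher in 5 and lower in 4 of 18 members past the filter. Besides Marco, Clec4n (dectin 2), a receptor for fungal mannan, was higher, at 316, 396 and 358 TPM against 62.0 to 64.8 TPM. Stab1 (stabilin 1), a receptor for modified proteins, was lower, at 89.5, 142 and 50.1 TPM against 588 to 693 TPM. Scara3 was higher at a low level, 9.19, 5.91 and 11.99 TPM against 0.16 to 0.65 TPM. The list thus held wide differences in both directions.

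In the list of phagocytosis and efferocytosis receptors 4 of 18 were called higher and 6 lower. Fcgr1, the high affinity receptor for IgG, stood at 33.0, 37.1 and 15.4 TPM against 96.1 to 164 TPM. Fcgr2b, the inhibitory one, was at 28.6, 40.8 and 20.1 TPM against 59.9 to 136 TPM. Tyro3, a receptor for dying cells, was higher at a low level, 5.28, 2.57 and 8.06 TPM against 0.18 to 0.58 TPM. Both Fc receptors were lowest in WT 4.

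Genes that mark tissue macrophages differed in both directions too. Cd5l, a secreted protein of Kupffer and peritoneal macrophages, was higher, at 85.6, 145 and 74.5 TPM against 14.2 to 25.2 TPM. Folr2, a folate receptor of resident macrophages, was lower, at 56.7, 69.0 and 32.4 TPM against 636 to 769 TPM. In the microglia list 4 of 6 members past the filter were called lower and 1, Sparc, higher. Olfml3, a secreted protein, stood at 8.34, 8.33 and 7.56 TPM against 49.3 to 68.7 TPM. In the alveolar macrophage list 5 of 15 were called higher, among them the fatty acid carriers Fabp4 and Fabp5, and 4 lower. Itgax (CD11c) was lower, at 7.3, 5.57 and 5.75 TPM against 14.3 to 35.1 TPM, and Pparg, a nuclear receptor central to alveolar macrophages, did not overlap but missed the limit, at 5.23, 6.59 and 9.09 TPM against 9.36 to 14.2 TPM.

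Complement genes split within the list. Of 18 members past the filter, 5 were called higher and 6 lower. All 3 chains of C1q were lower. C1qb stood at 692, 1331 and 370.1 TPM against 3651 to 4440 TPM. C1qc was at 364, 679.6 and 217 TPM against 1850.1 to 2246 TPM. WT 3 was the highest of the 3 libraries in each chain. Cd55, which shields cells from complement, was higher, at 3.18, 6.14 and 6.9 TPM against 0.15 to 0.40 TPM. The members C1ra, C1s1, C3 and Cfp were the others called higher. The sum of the list, set mostly by C1q, was 2434, 3824 and 1612 TPM against 9129 to 11229.6 TPM.

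Antigen presentation genes were lower or did not reach the limit. Of 7 MHC class II genes past the filter, 4 were called lower and none higher, with a median difference of -1.49. Cd74, the invariant chain, stood at 11.8, 13.7 and 10.1 TPM against 108 to 157 TPM. H2-Aa, a class II chain, was at 4.07, 4.35 and 2.2 TPM against 17.2 to 25.3 TPM. In the class I list 2 of 12 were called lower and none higher. H2-T23 was at 80.3, 83.7 and 44.8 TPM against 148 to 234 TPM, and H2-M3 at 18.2, 21.9 and 13.2 TPM against 37.8 to 53.2 TPM.

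Genes that respond to Toll-like receptors were mostly higher. Of 27 past the filter, 14 were called higher and 3 lower, with a median difference of 1.05. Their sum was 3268, 2706 and 1714 TPM against 616 to 1250 TPM, and 623 to 1929 TPM in KO. The highest KO sum, in KO 1, lay above that of WT 4. Fpr2, the partner of Fpr1, stood at 21.6, 23.9 and 18.6 TPM against 0.76 to 2.17 TPM. Ptgs2 (cyclooxygenase 2) was at 71.3, 33.9 and 121 TPM against 2.25 to 5.99 TPM. Slpi, a protease inhibitor, was at 148, 109 and 74.2 TPM against 7.72 to 11.5 TPM. The order within the 3 was not shared, since Slpi, Acod1 and Fpr1 were lowest in WT 4 and Ptgs2 was highest there. The cytokine Il6 was at 10.2, 4.12 and 11.1 TPM against 0.060 to 0.20 TPM, and Il1a at 7.65, 6.52 and 5.07 TPM against 0.28 to 0.65 TPM. Both cytokines lay under 1 TPM in every other WT library and passed the filter only through the 3. Tnf overlapped at 55.2, 62.0 and 39.1 TPM against 35.0 to 47.8 TPM. Nlrp3, an inflammasome sensor, was lower, at 15.7, 18.7 and 12.3 TPM against 34.4 to 45.8 TPM.

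Saa3, an acute phase protein of macrophages, was high in the 3 libraries, at 2096, 1524 and 603 TPM, but not called. WT 6 stood at 657 TPM where the other 3 WT libraries had 88.7 to 111 TPM. Saa3 ranged from 93.4 to 1192 TPM in KO, with KO 1 at 1192 TPM and KO 4 at 739 TPM. None of 17 Toll-like receptors and adaptors past the filter was called higher, and 2 were called lower, Cd14 and Tlr8. Tlr8, a receptor for single-stranded RNA, was at 16.6, 19.2 and 10.3 TPM against 27.8 to 40.1 TPM, and without WT 4 its difference of -1.11 became -0.87, short of the limit.

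Chemokine ligands were called higher in 9 and lower in 4 of 19 members past the filter. Cxcl1, which attracts neutrophils, stood at 40.5, 22.3 and 34.5 TPM against 0.49 to 0.97 TPM, and passed the filter only through WT replicates 2, 3 and 4. Cxcl2, of the same group, was at 53.3, 72.6 and 37.5 TPM against 6.21 to 9.5 TPM. Ccl17, which attracts T cells, was at 14.8, 11.8 and 26.1 TPM against 0.21 to 1.12 TPM. Other ligands went different ways. Ccl6, named after its values were seen, was higher, at 279, 394 and 144 TPM against 44.5 to 76.5 TPM. Ccl8 was lower, at 2.28, 2.2 and 0.44 TPM against 19.0 to 103 TPM. Ccl12 was also lower, at 7.16, 18.3 and 3.36 TPM against 69.2 to 97.1 TPM. Ccl2, the main ligand of Ccr2, overlapped at 782, 786 and 573 TPM against 523 to 665 TPM. Among chemokine receptors 1 of 8 was called higher, Ccrl2, and 4 lower, including Ccr1, Ccr2 and Cx3cr1. The higher share, 12.5%, is near the 13.3% of all genes, and the lower share was 50% against 4.36%.

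Interferon stimulated genes, which answer type I interferon, were lower in part. Of 31 past the filter, 10 were called lower and 1 higher, with a median difference of -0.69. Rtp4 stood at 26.0, 14.5 and 3.22 TPM against 35.7, 36.9, 109.6 and 38.2 TPM. Oas1g, a sensor of double-stranded RNA, was at 8.51, 6.45 and 2.14 TPM against 20.5, 18.3, 37.2 and 20.7 TPM. Irf7, the interferon amplifier, was at 25.2, 15.1 and 4.51 TPM against 21.8, 21.1, 96.7 and 24.1 TPM and overlapped. In these 3 genes WT 6 was the highest and WT 4 the lowest of the 7. Gbp2, a guanylate-binding protein, was the member called higher, at 11.8, 10.1 and 13.8 TPM against 1.61 to 2.3 TPM.

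Antioxidant genes controlled by Nrf2 were higher where they were called. Nrf2 (gene Nfe2l2) is a transcription factor that the protein Keap1 holds down until the cell meets oxidants or electrophiles, and its targets make and use glutathione. Of 35 members past the filter, 14 were called higher and none lower, with a median difference of 0.82. Nqo1, a quinone reductase, stood at 55.6, 38.3 and 69.2 TPM against 1.86, 2.46, 1.68 and 2.24 TPM. Mgst2, a microsomal glutathione transferase, was at 128, 131 and 78.3 TPM against 3.8 to 7.4 TPM. Gsta4, which clears lipid aldehydes, was at 16.4, 6.59 and 29.7 TPM against 0.070 to 0.30 TPM. Like Ptgs2 and Acod1, these differed in order, with WT 4 highest in Nqo1 and Gsta4 and lowest in Mgst2. Slc7a11, the cystine importer, was at 32.3, 24.1 and 28.2 TPM against 1.17 to 1.96 TPM. Hmox1, the heme oxygenase, missed the 2-fold limit at 4472, 4806 and 3465 TPM against 2027 to 2668 TPM, with no overlap.

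Messages of the regulators overlapped between the sets. Nfe2l2 stood at 87.9, 95.8 and 84.1 TPM against 81.5 to 86.5 TPM, and Keap1 at 35.5, 39.2 and 31.7 TPM against 37.1 to 39.7 TPM. The subunits of the enzyme that starts glutathione synthesis differed from each other. Gclm, the modifier subunit, was at 1003, 1034 and 791 TPM against 405 to 486 TPM and called higher. Gclc, the catalytic subunit, overlapped at 65.7, 58.4 and 62.1 TPM against 52.0 to 61.0 TPM. Without WT 3 the difference of Gclm was 0.98, short of the limit.

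Nrf2 binds the antioxidant response element, whose core is TGACNNNGC on either strand. RefSeq promoters (GRCm38.p6) were matched for 32 of the 38 listed targets. The core lay within 250 bases before the start in 7 of these 32 (21.9%), against 11.5% of 27018 genes with a promoter in the table, and in 3 of the 12 called higher with a sequence. The 250 bases of Gsta3 and Gclm are shown because both were called higher and hold the core, in capitals. It begins 121 bases before the start in Gsta3, at chr1:21240335-21240584 on the plus strand, and 134 bases before it in Gclm, at chr3:122245307-122245556 on the plus strand. The sequence of Marco, the gene with the largest difference, at chr1:120505025-120505274 on the minus strand, holds neither this core nor a CArG box and is shown for comparison.
Gsta3 upstream: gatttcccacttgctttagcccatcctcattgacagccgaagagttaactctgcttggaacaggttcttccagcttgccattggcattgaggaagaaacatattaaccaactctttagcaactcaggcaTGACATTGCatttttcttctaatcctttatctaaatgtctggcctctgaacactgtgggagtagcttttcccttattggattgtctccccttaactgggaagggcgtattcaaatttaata
Gclm upstream: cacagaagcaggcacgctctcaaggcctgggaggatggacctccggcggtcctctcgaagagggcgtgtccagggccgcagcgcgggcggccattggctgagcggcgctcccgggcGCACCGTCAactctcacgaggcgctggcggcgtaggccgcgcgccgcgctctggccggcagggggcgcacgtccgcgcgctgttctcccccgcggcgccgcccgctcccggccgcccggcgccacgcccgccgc
Marco upstream: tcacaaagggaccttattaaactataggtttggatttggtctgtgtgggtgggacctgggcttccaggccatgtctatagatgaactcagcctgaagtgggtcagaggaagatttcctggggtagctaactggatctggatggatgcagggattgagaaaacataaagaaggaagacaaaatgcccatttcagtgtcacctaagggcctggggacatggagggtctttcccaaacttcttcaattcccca
In Gclm the core reads on the opposite strand. Gsta3 differed far more than Gclm, by 4.49 against 1.06 on the log2 scale.

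In the list of lipid uptake, droplet and storage genes 6 of 18 were called higher and none lower. Fabp5, a fatty acid carrier, stood at 2179, 2029 and 1119 TPM against 221 to 549 TPM. Its relative Fabp4 was at 223, 194 and 119 TPM against 17.4 to 46.3 TPM. Angptl4, an inhibitor of lipoprotein lipase, was at 33.4, 28.1 and 37.9 TPM against 6.35 to 7.62 TPM. Both carriers were lowest in WT 4. Plin2, which coats lipid droplets, did not overlap but missed the limit, at 2012, 2141 and 1331 TPM against 961 to 1280 TPM.

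In the cholesterol synthesis list 5 of 20 were called lower and none higher, with a median difference of -0.60. Cyp51, a demethylase of the pathway, stood at 6.57, 7.75 and 14.2 TPM against 19.2 to 23.9 TPM. It was close to the limit, and without WT 2 its difference was -0.91. Srebf2, the factor that drives this pathway, missed the limit at 24.9, 32.2 and 35.0 TPM against 54.8 to 65.3 TPM.

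Among 16 cholesterol efflux and LXR target genes 3 were called higher and 2 lower. These shares, 18.75% and 12.5%, compare with 13.3% and 4.36% of all genes. Abcg1, a cholesterol exporter, was higher, at 34.3, 30.0 and 18.7 TPM against 5.46 to 9.23 TPM. Scd2, a fatty acid desaturase, was at 42.2, 43.5 and 38.8 TPM against 6.35 to 8.94 TPM. Ch25h, which makes 25-hydroxycholesterol, had the fourth largest difference downward of all genes. It stood at 0.92, 1.61 and 1.34 TPM against 141, 161, 220.3 and 127 TPM, and at 55.7 to 95.5 TPM in KO.

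Arg1 (arginase 1), which takes arginine from nitric oxide synthesis and is a marker of alternative activation, had the largest difference downward of all 11754 genes. It stood at 4.69, 8.64 and 2.28 TPM against 492, 755, 388 and 499 TPM, a difference of -6.52 on the log2 scale, and at 92.2 to 315 TPM in KO. Of 10 alternative activation genes past the filter 4 were called higher and 3 lower. These shares, 40% and 30%, compare with 13.3% and 4.36% of all genes. Ccl17, given above, had the widest difference upward, 3.56 on the log2 scale, and the lower members were Arg1, Chil3 and F13a1. F13a1, the coagulation factor XIII A chain, was lower, at 9.88, 19.3 and 7.39 TPM against 148 to 170 TPM. Cd163, a hemoglobin scavenger receptor, was under 1 TPM in all 12 libraries, at 0.38, 0.49 and 0.43 TPM against 0.46 to 0.51 TPM.

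Of 30 cell cycle genes past the filter, 12 were called higher and none lower. Ccnb1 (cyclin B1), which drives entry into mitosis, stood at 64.3, 62.9 and 77.4 TPM against 18.9 to 27.4 TPM. Cdc20, an activator of the anaphase complex, was at 63.4, 58.2 and 97.4 TPM against 14.0 to 25.9 TPM. Rrm2, which makes deoxynucleotides, was at 174, 166 and 227 TPM against 37.9 to 59.1 TPM. WT 4 was the highest of the 3 in each. The cell cycle inhibitor Cdkn1a (p21) was higher too, at 715, 781 and 614 TPM against 241 to 321 TPM, but lowest of the 3 in WT 4. Mcm2 to Mcm7, the 6 genes of the replication helicase, had negative differences short of the limit, the widest in Mcm6, at 98.7, 115 and 90.1 TPM against 156 to 191 TPM.

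In the integrated stress response list 5 of 24 were called higher and 1 lower. These shares, 20.8% and 4.17%, compare with 13.3% and 4.36% of all genes. Ddit4, an inhibitor of mTORC1, stood at 42.5, 45.4 and 52.6 TPM against 3.39 to 8.43 TPM. Phgdh, the first enzyme of serine synthesis, was at 66.6, 46.7 and 117 TPM against 10.9 to 17.1 TPM. Gdf15, a secreted stress signal, was at 240.4, 273 and 159 TPM against 15.9 to 29.2 TPM. Of 14 iron handling genes 4 were called higher and 1 lower. Slc40a1 (ferroportin), the iron exporter, was at 90.8, 85.0 and 77.8 TPM against 15.8 to 17.8 TPM. Hspb1, a small heat shock protein abundant in muscle, was the one higher gene of 15 in the unfolded protein and heat shock list. That share, 6.67%, lies below the 13.3% of all genes. Hspb1 was at 165, 140.3 and 333 TPM against 4.72 to 15.6 TPM.

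Lipid mediator genes were called higher in 4 and lower in 3 of 14. Ptges, which makes prostaglandin E2 from the product of Ptgs2, stood at 18.4, 11.4 and 19.1 TPM against 0.94 to 2.13 TPM. Hpgd, which breaks prostaglandins down, was at 0.81, 0.76 and 0.98 TPM against 5.81 to 8.8 TPM. Pla2g7, a phospholipase carried on lipoproteins, was at 258, 239 and 148 TPM against 48.6 to 58.7 TPM. The gene that makes prostaglandin E2 was thus higher and the one that degrades it lower. Integrins were called higher in 3 and lower in 4 of 14, among them Itga6, a laminin receptor chain, at 35.1, 48.1 and 24.4 TPM against 221 to 298 TPM. Of 19 immediate early genes 4 were called higher and 1 lower. These shares, 21.1% and 5.26%, compare with 13.3% and 4.36% of all genes. Fosl1, an AP-1 subunit, was at 21.9, 15.4 and 35.5 TPM against 4.05 to 6.02 TPM, and Ier2 was lower, at 50.3, 47.7 and 49.6 TPM against 103 to 121 TPM. Of 17 inflammasome and cell death genes 3 were called higher, near the 13.3% of all genes, and 2 lower. The higher ones included Ripk3, a kinase of necroptosis, at 55.8, 47.7 and 76.2 TPM against 18.6 to 25.9 TPM.

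Housekeeping lists separated less. None of 27 nuclear oxidative phosphorylation genes was called, although 25 of the 27 differences were above 0, and the median was 0.25. None of 22 cytosolic ribosomal protein genes was called, with a median of -0.06. Of 27 lysosomal genes 1 was called lower, and of 25 glycolysis and hypoxia genes 1 was called higher and 2 lower. The lower shares, 3.70% and 8%, compare with 4.36% of all genes. The higher share of the glycolysis list, 4%, lies below the 13.3% of all genes. Gapdh, a glycolytic enzyme, overlapped at 4607, 5584 and 4254 TPM against 4105 to 4325 TPM. Within the SWI/SNF complex 2 of 21 subunits were called higher, a share of 9.52% that lies below the 13.3% of all genes. Dpf1 stood at 6.0, 1.47 and 4.43 TPM against 0.23 to 1.13 TPM, and Smarcd3, a paralog of the targeted Smarcd1, at 10.1, 8.65 and 18.6 TPM against 0.97 to 1.97 TPM. Smarcd2, the most abundant of the 3 paralogs here, was at 42.8, 45 and 42.2 TPM against 52.4 to 60.3 TPM.

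Other genes among the 12 largest differences upward came from secreted and membrane proteins. Fgf7, a growth factor secreted by stromal cells, stood at 56.8, 29.6 and 97.2 TPM against 0.38 to 1.94 TPM. Dkk3, a secreted glycoprotein, was at 53.0, 33.8 and 74.9 TPM against 0.48 to 1.44 TPM. Tm4sf1, a membrane protein of endothelial and mesenchymal cells, was at 128, 90.4 and 153 TPM against 1.78 to 6.32 TPM. The glycosyltransferase gene Galnt18 had the same order, with WT 4 highest of the 3 as in the other 3 genes, at 28.9, 21.8 and 85.1 TPM against 0.070 to 0.76 TPM.

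Among the 12 largest downward, 4 have not been given. Slco2b1, an organic anion transporter, stood at 0.14, 0.31 and 0.12 TPM against 25.5 to 43.0 TPM. Fcrls, an Fc receptor-like gene, was at 7.94, 23.1 and 7.32 TPM against 207 to 379 TPM. Gatm, an enzyme of creatine synthesis, was at 14.4, 18.9 and 13.1 TPM against 282 to 403 TPM. In these genes, and in the interferon-induced Ifi27l2a at 36.2, 38.7 and 5.73 TPM against 289, 298, 944 and 303 TPM, WT 6 stood highest of the other 4 libraries.

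The 3 libraries were not alike. WT 4 was the highest of the 3 in 1258 of the 1562 higher genes (80.5%), against 55.2% of all 11754 genes, and the order WT 4, WT 2, WT 3 held in 1064. WT 4 was the lowest of the 3 in 186, a class that holds Marco, Fpr1, Acod1, Gsta3, Mgst2, Slpi, Fabp4, Fabp5, Cd5l and Gdf15. Genes called lower were highest in WT 3 in 330 of 513 (64.3%), against 28.7% of all genes. These classes were drawn after the values were seen. For the called members of the fibroblast, contractile and matrix lists the median ratio of WT 4 to WT 3 was 2.08, 2.69 and 2.33 on the TPM + 1 scale, for the Nrf2 list 1.07 and for the Toll-like receptor response list 0.924.

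The other 4 libraries held a smaller difference of their own. WT 6 was the lowest of the 4 in 1199 of the 1562 higher genes (76.8%), against 35.7% of all genes, and the highest in 328 of the 513 lower genes (63.9%), against 29.1%. The median ratio of WT 6 to the mean of WT replicates 1, 5 and 7 was 0.398 for the called fibroblast markers, 0.436 for contractile genes and 0.348 for matrix genes, and 1.95 for the interferon genes called lower. WT 6 thus lay farther from the 3 libraries than WT replicates 1, 5 and 7 did in these lists.

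**Figure D4:**
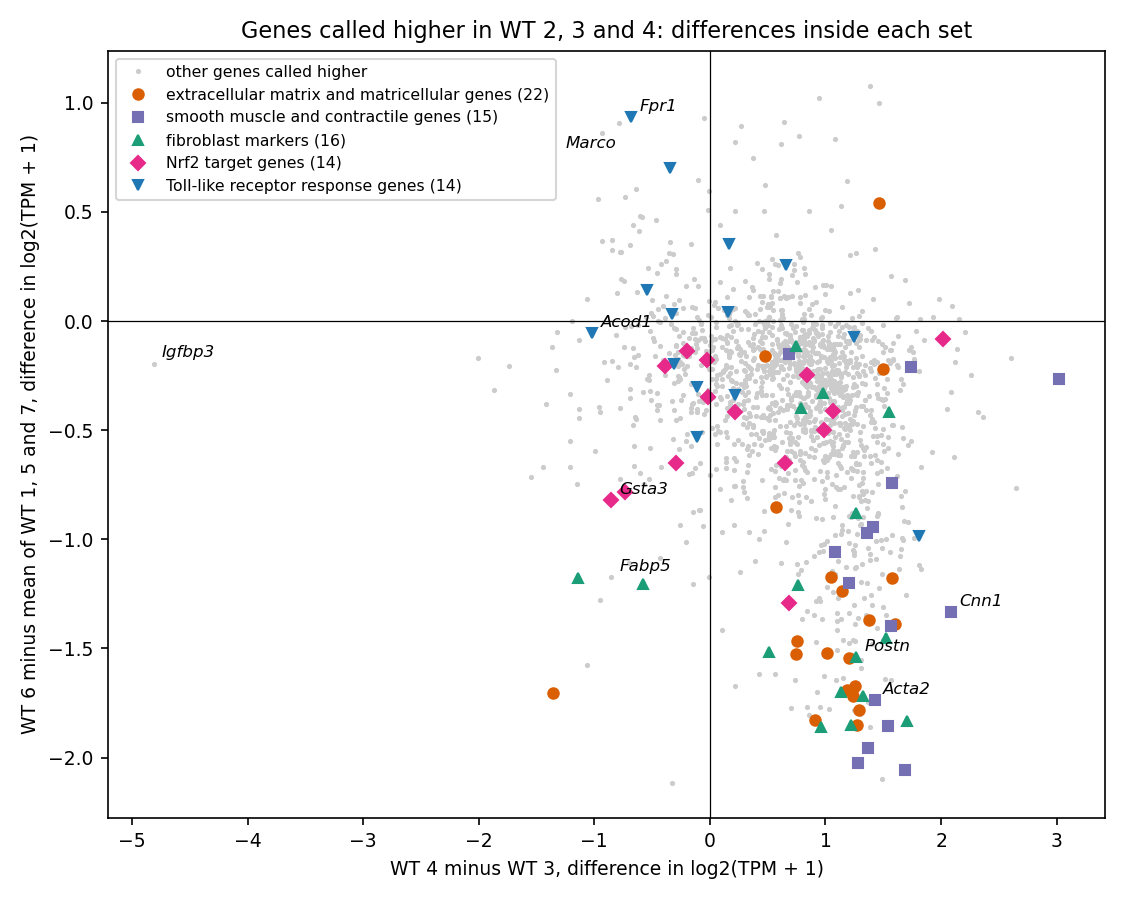
Each point is a gene called higher in WT replicates 2, 3 and 4; the x axis gives WT 4 minus WT 3 and the y axis WT 6 minus the mean of WT replicates 1, 5 and 7, both as differences in log2(TPM + 1). Contractile genes lie to the right and below 0 in all 15 cases, Marco, Fpr1, Acod1 and Gsta3 lie to the left, and Igfbp3 lies far to the left, at 61.1 TPM in WT 3 and 1.21 TPM in WT 4.

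The 8 genes with the widest range within the 3 libraries included Igfbp3 and Lyz2, given above. All 8 averaged at least 20 TPM in the 3 and spanned less than 1 log2 unit in the other 4. Igfbp3, Siglecg, Col11a1 and Hs6st2 lay under 1 TPM in each of the other 4. Their narrow range there on the log2(TPM + 1) scale was thus fixed in advance. Ankrd1, a muscle and myofibroblast gene that responds to mechanical load, stood at 34.2, 15.4 and 101.4 TPM against 0.29 to 1.47 TPM. Siglecg, a sialic acid receptor best known from B cells, was at 18.6, 12.1 and 55.9 TPM against 0.21 to 0.48 TPM. The collagen gene Col11a1 was at 14.5, 7.29 and 40.5 TPM against 0.12 to 0.52 TPM. In these 3 genes, and in Hs6st2, a heparan sulfate sulfotransferase, at 17.2, 11.03 and 51.0 TPM against 0.10 to 0.90 TPM, WT 4 was the highest and WT 3 the lowest of the 3 libraries.

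Mitochondrial genes made up the rest. The gene mt-Atp8 is listed at 0 in WT 4 and stood at 4092 and 4936 TPM in WT 2 and WT 3 and at 4264 to 4316 TPM in the rest of WT. An exact 0 of so abundant a transcript can be a failed estimate, so no fold is given. The short gene mt-Nd4l was at 43.5, 73.7 and 16.3 TPM against 72.5 to 143 TPM. The mitochondrial ribosomal RNA gene mt-Rnr1 was higher, at 235, 220.3 and 177 TPM against 60.3 to 69.4 TPM, and mt-Rnr2 stood at 302, 295 and 265 TPM against 143 to 167 TPM. Whether RNA quality differs between the libraries was not tested.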

How the data were processed

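Total RNA of 12 mouse macrophage samples, 7 WT and 5 Baf60a KO, was sequenced in paired 51-base reads on a NovaSeq 6000, per the labels' protocols. The authors deposited one table of TPM values (length-corrected shares of each library) for 23438 Ensembl genes; Salmon 1.2.0, bcl2fastq and mm10 are named in the submitters' processing notes. The sources used here give neither the annotation, nor the step from transcripts to genes, nor the use of strand. TPM keeps no depth, so no counting error can be given, and overlapping or near-identical genes may share reads.

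From the deposited TPM, log2(TPM + 1) was compared between WT replicates 2, 3 and 4 and WT replicates 1, 5, 6 and 7 with Python 3.11.15, pandas 2.3.3 and NumPy 2.4.6, over genes that reached 1 TPM in 3 or more of these 7 libraries. No test was run, because the 3 libraries were chosen by their expression. The libraries compared, the gene lists and the rules were chosen with earlier results of these data known. Symbols were found for 23423 IDs. Named genes are the 9 markers, the 12 largest differences each way whose mean reached 20 TPM on the higher side (unnamed, predicted, antisense genes and pseudogenes left out), up to 4 called members per list (or 2 as values where none was called), the 8 genes with the widest range within the 3, and Smarcd1, Smarcd2 and Smarcd3. The selenoprotein list and 60 further genes, among them Itgam, Tgfbr1, Mpo, Cdh5, Csf2 and mt-Rnr1, were chosen after their values were seen. Motifs were searched on both strands of the 250 bases before each start in RefSeq promoters (GRCm38.p6); the CArG box and the antioxidant core were matched by their letters. Alternatives changed the pseudocount, filter, fold limit, scaling and libraries. The counting was tested on simulated data. Some list members, among them Apoe, Klf4 and Hmgcs1, were not analysed here, and some results are not reported here.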

Additional observations from a re-analysis of the deposited data

Results flagged for a closer look

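In 11 of 128 groups of summed list levels and marker values, 1 library lay far from the rest of its genotype by Dixon's criterion. Chance alone meets this criterion in about 1 in 20 groups only where the libraries of a group are alike to begin with. The WT libraries were already known to fall into separate sets, and the lists share members. The count of 11 therefore cannot be set against chance and is a description only. In WT the library that lay apart was mostly WT 4. It was the lowest of the 7 for the pan-macrophage markers, at 8520.1 TPM where the other 6 had 19529 to 26348 TPM, a sum that follows Lyz2. It was also lowest for mitochondrial genome transcripts, at 6518 TPM against 11566 to 13369 TPM, and the gene mt-Atp8 is listed at 0 in WT 4 and at 4092 to 4936 TPM in the other 6. Without mt-Atp8 the sums were 6518 TPM against 7474 to 9073 TPM. WT 4 was lowest as well for cholesterol efflux and LXR target genes, at 1251 TPM against 1652 to 1826 TPM, for iron handling genes, at 39846 TPM against 51210.1 to 59849 TPM, and for inflammasome and cell death genes, at 609 TPM against 749.6 to 799 TPM. WT 4 was the highest for dendritic cell markers, at 497 TPM against 212 to 267 TPM, and for unfolded protein and heat shock genes, at 5326 TPM against 4133 to 4579 TPM. Most of the dendritic cell sum in WT 4 was Fscn1, at 448 TPM there and 4.83 to 19.9 TPM in WT replicates 1, 5, 6 and 7. Of the 5 dendritic cell markers past the filter, 1, Fscn1, was called higher and 2, Irf8 and Itgax, lower.

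WT 6 was the lowest of the 7 for osteoclast markers, at 91.9 TPM against 168 to 224 TPM. In KO, replicate 1 was the highest for Toll-like receptors and adaptors, at 1095.8 TPM against 1074 to 1078 TPM. KO replicate 5 was the highest for the TGF-beta family and targets, at 1570.1 TPM against 1367 to 1390.2 TPM, and the lowest for cell cycle genes, at 2223 TPM against 2586 to 2739 TPM. No explanation of these values was tested.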

How the results depend on the processing

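The count of higher genes, 1562 as reported, was 965 with at least 5 TPM in 3 libraries and 667 with a 4-fold limit. The lower count, 513, was 91 with a 4-fold limit. Leaving out 1 library at a time gave 934 (without WT 4) to 1599 (without WT 1) higher and 478 (without WT 4) to 598 (without WT 3) lower genes, with 1029 higher without WT 2. With the genes past the filter in all 7 libraries kept, it gave 1461 to 1667 higher, so the fall came from the filter. A pseudocount of 0.1, no filter, other scalings and leaving out the stromal lists gave 1548 to 1771 higher and 488 to 623 lower genes. The median difference of the basophil, mast cell and eosinophil list, 1.09 over 3 members, turned to -0.018 with no filter, -0.20 without WT 1, -2.41 without WT 2, -0.46 without WT 3 and -2.40 without WT 4, with a high of 1.04 without WT 5, as members entered or left. No other list median of size 1 or more, and no named gene called, changed sign under the alternatives that gave a value. Of 186 named genes called, 165 kept the call at 5 TPM, 156 to 157 without WT 2, WT 3 or WT 4, and all 186 without any one of the other 4. No paired analysis was possible because the sets compared are both WT and share no replicate number. TPM keeps no depth, so the precision of low values is unknown.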

Other observations

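Selenoproteins, enzymes that carry selenium as selenocysteine, were not among the lists first drawn up and were examined after their values were seen. Of 20 members past the filter 5 were called higher and none lower, with a median difference of 0.53. The higher share, 25%, compares with 13.3% of all genes. Their summed level was 6878, 6797 and 6455 TPM in WT 2, WT 3 and WT 4, against 2969.7 to 3182 TPM in the rest of WT and 3007 to 3154 TPM in KO. The 3 libraries lay close together in this sum, unlike in the stromal lists. Selenow, a small redox protein, stood at 727, 619 and 699 TPM against 71.5, 71.9, 74.7 and 73.4 TPM. Gpx1, the main glutathione peroxidase of the cytosol, was at 2162, 2273 and 2039.5 TPM against 688, 666, 715 and 696 TPM. Selenoh, a nuclear redox protein, was at 187, 160.3 and 218 TPM against 39.5, 36.8, 34.9 and 38.6 TPM. In these 3 genes the spread within each set was small beside the distance between the sets, and KO lay near the other WT libraries, with Selenow at 73.4 to 79.4 TPM. Gpx3, a secreted peroxidase, and Selenom were higher too, but with the order of the stromal genes. Gpx3 was at 105, 75.5 and 147 TPM against 5.74 to 16.1 TPM, with WT 4 highest and WT 6 lowest of its set. Other members did not reach the limit. Gpx4, which protects membranes from lipid peroxides, was at 1154, 1189.9 and 917 TPM against 616 to 705 TPM. Selenok and Selenos, of the endoplasmic reticulum, had differences of 0.01 and 0.00, Selenos at 93.9, 93.6 and 100.4 TPM against 92.3 to 98.3 TPM.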
